A study of Homo sapiens with 9 samples.

Results

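Messenger RNA of 10 genes that remove superoxide and peroxides was followed in a Burkitt lymphoma B cell line, CA46, which is an established human line. The genes were taken by symbol: the peroxiredoxins PRDX1 to PRDX6, the superoxide dismutases SOD1 and SOD2, the catalase CAT and the glutathione peroxidase GPX4. All 10 were found in the RNA tables, each as 1 row with its own symbol, among 23235 named genes and joint rows, and all 10 passed the filter of a mean of 1 FPKM that left 11198 genes. FPKM counts fragments relative to gene length and library size, so its values can be compared between genes.

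Every library came from virus-infected CA46 cells, 48 h after infection. The control virus expressed a non-targeting shRNA (NTC) and the knockdown virus a Myc shRNA, and for the last 20 h the cells received either PBS or dimethyl succinate (DMS, 10 mM), an ester of succinate that enters cells. RNA-seq gave 1 library per virus and medium, 4 in all, so a difference between 2 libraries has no replicate check and no p-value. By its labels the study also profiled chromatin, and its 4 ChIP-seq libraries and 1 input library were not analysed here.

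Superoxide dismutases turn superoxide into hydrogen peroxide, SOD1 in the cytosol with copper and zinc and SOD2 in the mitochondrial matrix with manganese. Peroxiredoxins then reduce the peroxide through a reactive cysteine, and most of them are restored by thioredoxin, which thioredoxin reductase recharges with NADPH. PRDX1 and PRDX2 act mainly in the cytosol, PRDX3 in mitochondria, PRDX4 in the endoplasmic reticulum, and PRDX5 in mitochondria, peroxisomes and the cytosol. PRDX6 works with a single reactive cysteine and glutathione, CAT breaks down peroxide in peroxisomes, and GPX4 is the selenoprotein that reduces lipid peroxides and holds off ferroptosis.

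Promoters are shown first because MYC binds the E-box letters CACGTG and the study lowered MYC. RefSeq (GRCh38.p14) gave promoter windows, from 250 bases before to 50 bases after a start site, for 7 of the 10 genes (13 windows, several genes having more than 1 start). PRDX1, PRDX6 and SOD1 had no window here, so neither motif was searched in them. CACGTG was found in 2 of these 7 genes, PRDX3 and PRDX4, against 8.77% of 27305 symbols with a window. The core of the antioxidant response element, TGACNNNGC, was searched on both strands and was found in none of the 7, against 16.1% of all symbols. The windows of PRDX3 and PRDX4 are printed with PRDX2 and CAT, which hold neither motif and whose levels lay on opposite sides of control in the knockdown. All are written 5′ to 3′ on the strand of the gene, with CACGTG in capitals. In PRDX3 its first base lay 157 bases before the start site, and in PRDX4 83 bases before it.
PRDX3, chr10:119178763-119179062, minus strand: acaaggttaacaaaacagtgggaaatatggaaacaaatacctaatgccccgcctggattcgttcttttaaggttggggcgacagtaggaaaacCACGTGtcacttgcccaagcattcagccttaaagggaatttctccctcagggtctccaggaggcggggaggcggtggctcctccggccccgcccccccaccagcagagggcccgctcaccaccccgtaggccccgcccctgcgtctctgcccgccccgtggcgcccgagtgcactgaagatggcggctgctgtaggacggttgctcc
PRDX4, chrX:23667243-23667542, plus strand: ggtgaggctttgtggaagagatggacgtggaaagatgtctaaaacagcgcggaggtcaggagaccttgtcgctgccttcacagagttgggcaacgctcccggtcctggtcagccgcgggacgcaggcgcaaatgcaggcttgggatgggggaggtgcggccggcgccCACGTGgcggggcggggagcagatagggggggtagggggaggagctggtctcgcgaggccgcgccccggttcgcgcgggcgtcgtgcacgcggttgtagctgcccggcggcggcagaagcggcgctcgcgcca
PRDX2, chr19:12801751-12802050, minus strand: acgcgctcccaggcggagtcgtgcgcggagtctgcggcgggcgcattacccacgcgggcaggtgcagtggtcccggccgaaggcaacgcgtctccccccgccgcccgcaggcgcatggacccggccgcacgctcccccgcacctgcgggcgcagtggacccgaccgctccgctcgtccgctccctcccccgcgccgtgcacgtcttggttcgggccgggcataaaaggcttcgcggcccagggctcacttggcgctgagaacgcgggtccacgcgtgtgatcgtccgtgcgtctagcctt
CAT, chr11:34438684-34438983, plus strand: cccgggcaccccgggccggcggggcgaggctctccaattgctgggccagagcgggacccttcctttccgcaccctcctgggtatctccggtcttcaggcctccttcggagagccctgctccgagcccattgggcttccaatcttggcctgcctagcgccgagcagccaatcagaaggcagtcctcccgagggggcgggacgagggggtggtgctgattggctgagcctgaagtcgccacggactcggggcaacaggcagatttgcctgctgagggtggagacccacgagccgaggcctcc
A match describes these letters only, and the windows say nothing of binding in CA46.

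The libraries were checked before the genes were compared. The shRNA target MYC measured 1868 FPKM (PBS) and 1651 FPKM (DMS) with the control virus. With the Myc shRNA its level was 17.1 FPKM (PBS) and 625 FPKM (DMS), which is 0.913% and 37.9% of control in the same medium. The pair of knockdown libraries therefore differed 36.7-fold in the target itself, and this difference runs beside every DMS comparison in knockdown cells below. The summed level of 8 B cell markers, of which 7 passed the filter, lay between 1495 and 6405 FPKM and was higher in both knockdown libraries than in both control libraries. CD79A (2547 FPKM) and CD79B (2449 FPKM, a joint row with CSH1) made up most of the highest sum, in the knockdown in PBS. Of the markers of germinal centre B cells on the list, BCL6 did not pass the filter (0.426 FPKM at most) and MME reached 2.98 FPKM at most. The summed level of 5 T cell markers lay between 8.32 and 9.82 FPKM. CD3E made up most of it (8.23 and 6.79 FPKM in control cells, 6.39 and 6.15 FPKM in the knockdown, in PBS and DMS). CD2 was higher in the knockdown, at 0.540 and 0.187 FPKM in control cells and 1.78 and 1.50 FPKM in the knockdown. The 4 erythroid markers were listed at 0 throughout. Sequencing depth is unknown, because the tables hold no counts. In bulk RNA, fewer cells expressing a gene and less of its RNA per cell cannot be told apart.

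In control cells in PBS the 10 genes spanned 29.4 to 743 FPKM, and their mean levels over the 4 libraries lay between the 59.7th and the 98.5th percentile of all genes tested. PRDX1 was highest, followed by PRDX2 (380 FPKM), SOD1 (356 FPKM), PRDX5 (265 FPKM), GPX4 (197 FPKM), PRDX3 (160 FPKM), PRDX4 (141 FPKM), PRDX6 (116 FPKM), CAT (51.5 FPKM) and SOD2. With 1 library a group, neighbours in this order cannot be separated by a test. The order in control cells in DMS was the same except that PRDX4 and PRDX3 changed places. In the knockdown library in PBS the order differed: PRDX1 stayed first, PRDX5 came next, GPX4 was at rank 3, CAT was at rank 4 instead of 9, and PRDX2 was at rank 7 instead of 2.

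**Figure D1:**
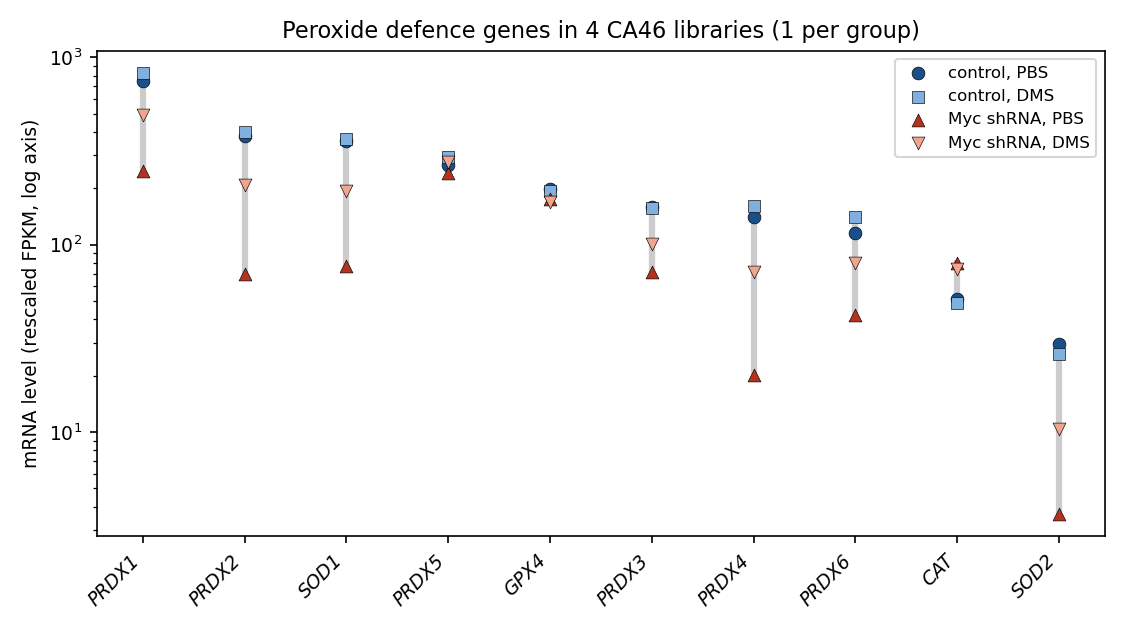
Rescaled FPKM (log axis) of the 10 genes, sorted by the control library in PBS; each symbol is 1 library and the grey line spans the 4. Both knockdown libraries (triangles) lie below both control libraries for PRDX1, PRDX2, PRDX3, PRDX4, PRDX6, SOD1, SOD2 and GPX4, above them for CAT, and in among them for PRDX5. Of all genes tested, 41.9% lie below in this way and 42.2% above.

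The first comparison asked what the Myc shRNA did to peroxide defence in PBS. PRDX1, PRDX2, PRDX3, PRDX4, PRDX6, SOD1 and SOD2 were at least 2-fold lower in the knockdown library, PRDX5 and GPX4 lay within 0.17 of 0 on the log2 scale, and CAT was higher. By the 2-fold rule 7 of 10 genes were lower and 0 higher, where 17.0% of all genes tested passed the rule as lower and 14.4% as higher. The median log2 ratio of the 10 genes was -1.51, and that of all genes was -0.00. Ratios are differences of log2(FPKM + 1), and so understate changes of low genes.

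Among the cytosolic peroxiredoxins, PRDX1 (chromosome 1, 45965856 to 45988562, hg19) measured 743 FPKM (control, PBS), 827 FPKM (control, DMS), 246 FPKM (knockdown, PBS) and 493 FPKM (knockdown, DMS), and wherever 4 levels of a gene are listed they follow this order. Its level in PBS was 33.1% of control (log2 ratio -1.59). The locus given for PRDX1 is shared with MMACHC, a cobalamin enzyme gene at 10.9, 10.9, 1.61 and 5.41 FPKM, and whether the counting used strand is not given in the sources used here, so reads of this pair may not be fully separated. PRDX2 (chromosome 19, 12907634 to 12912724) measured 380, 399, 69.6 and 209 FPKM. It stood at 18.3% of control in PBS, so that the ratio of PRDX1 to PRDX2 was 1.96 in control cells and 3.53 in the knockdown. PRDX6 (chromosome 1, 173446486 to 173457946) measured 116, 141, 42.3 and 79.5 FPKM, with a log2 ratio of -1.43 in PBS. In all 3 genes the knockdown library in PBS was lowest, the knockdown library in DMS came next, and the control libraries did not overlap with them. Of all genes tested, 41.9% had both knockdown libraries below both control libraries.

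The organelle peroxiredoxins differed from each other more than the cytosolic ones did. PRDX4 (chromosome X, 23685519 to 23704517), which uses peroxide to help form disulfide bonds in secreted proteins, had the widest range of the 10 genes on the log2(FPKM + 1) scale (2.93, against 2.71 for SOD2): 141 and 161 FPKM in control cells and 20.2 and 71.2 FPKM in the knockdown, in PBS and DMS. Its level in PBS was 14.4% of control, 6.96-fold lower. PRDX3 (chromosome 10, 120927211 to 120938377), the mitochondrial matrix enzyme and in human cells a described MYC target, measured 160, 156, 71.2 and 101 FPKM, a log2 ratio of -1.15 in PBS. PRDX5 (chromosome 11, 64085560 to 64089295) measured 265, 295, 241 and 275 FPKM. Its knockdown library in DMS was above its control library in PBS, so the viruses overlapped for this gene.

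Both superoxide dismutase genes were lower in the knockdown. SOD1 (chromosome 21, 33031935 to 33041243) measured 356 and 365 FPKM in control cells and 77.0 and 192 FPKM in the knockdown, in PBS and DMS, 4.63-fold lower in PBS. SOD2 (chromosome 6, 160099919 to 160114362) was the lowest of the 10 genes in every library, at 29.4, 26.0, 3.63 and 10.3 FPKM, and was 8.09-fold lower in PBS. The ratio of SOD1 to SOD2 was 12.1 in control cells and 21.2 in the knockdown in PBS.

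CAT and GPX4, like PRDX5, lay apart from the 7 genes that were at least 2-fold lower in PBS. CAT (chromosome 11, 34460472 to 34493607) measured 51.5 and 48.9 FPKM in control cells and 80.2 and 74.1 FPKM in the knockdown, a log2 ratio of 0.63 in PBS and 0.59 in DMS. Both knockdown libraries were above both control libraries, which held for 42.2% of all genes tested. GPX4 (chromosome 19, 1103925 to 1106788) measured 197, 194, 175 and 168 FPKM, the narrowest range of the 10 genes (0.23 on the log2(FPKM + 1) scale). The ratio of SOD1 to CAT, which no rescaling of libraries can move, was 6.92 in control cells and 0.960 in the knockdown in PBS, with 7.46 and 2.60 in DMS.

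The share of each gene in the peroxiredoxin mRNA pool is also free of the scaling between libraries, while the summed levels are not. The 6 peroxiredoxins summed to 1805 and 1979 FPKM in control cells and to 690 and 1229 FPKM in the knockdown, in PBS and DMS. PRDX5 made up 14.7% of this sum in control cells in PBS and 34.9% in the knockdown, while PRDX2 went from 21.1% to 10.1% and PRDX4 from 7.79% to 2.93%. PRDX1 held 41.2% and 35.6%, PRDX3 8.85% and 10.3%, and PRDX6 6.40% and 6.13%. In the knockdown library in DMS, PRDX5 at 22.4%, PRDX2 at 17.0%, PRDX4 at 5.79% and PRDX1 at 40.1% lay between these values, while PRDX3 at 8.23% lay below and PRDX6 at 6.47% above both of its own.

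**Figure D2:**
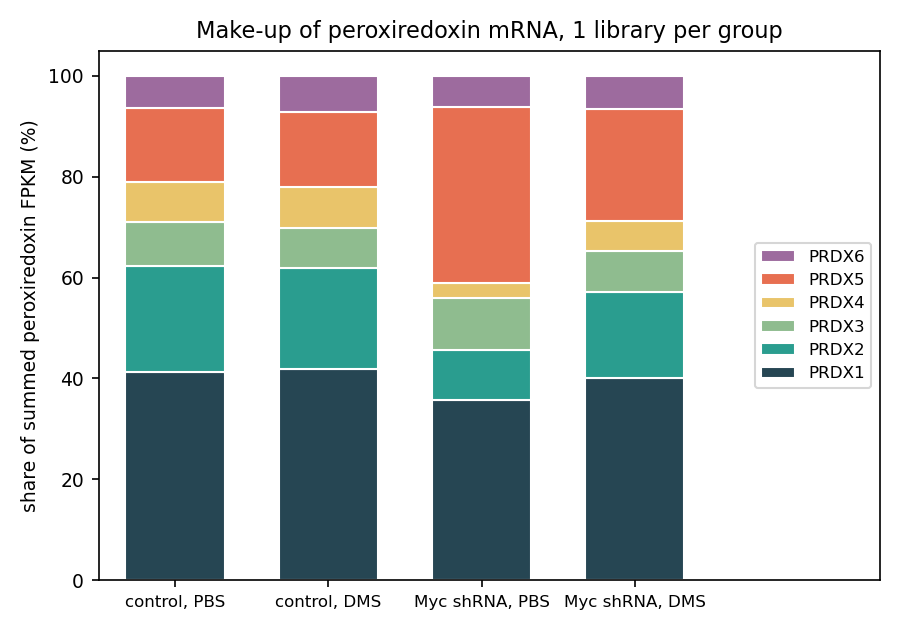
Share of each peroxiredoxin in the summed FPKM of the 6 (y axis, percent), 1 bar per library. PRDX5 takes 34.9% of the bar for the knockdown in PBS against 14.7% in control cells in PBS, and PRDX2 10.1% against 21.1%.

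With succinate present the same pair of viruses was compared, MYC now being at 37.9% of control. The 7 genes that were 2-fold lower in PBS were also below control in DMS, from 39.8% of control for SOD2 to 64.7% for PRDX3, and 2 of 10, PRDX4 (44.2% of control) and SOD2, were at least 2-fold lower. Over all genes tested 3.59% passed the rule as lower and 9.65% as higher, and 0 of the 10 genes were higher by this rule. PRDX2 and SOD1, at log2 ratios of -0.93 and -0.92, lay just inside the threshold, and with the values as deposited 4 of 10 genes were 2-fold lower. That scaling also moved the split over all genes from 402 lower and 1081 higher to 674 lower and 915 higher. The median log2 ratio was -0.78 for the 10 genes and -0.00 for all genes.

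**Figure D3:**
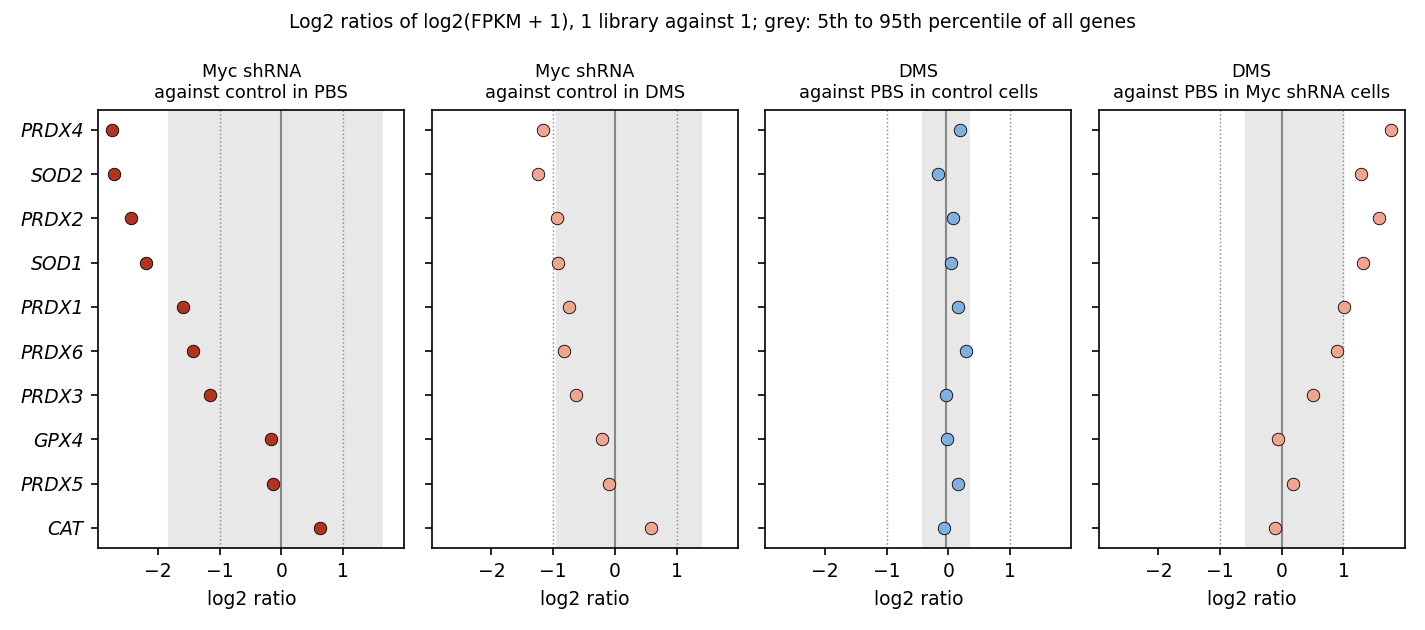
Log2 ratio of log2(FPKM + 1) of the 10 genes in the 4 comparisons, each 1 library against 1; the grey band spans the 5th to the 95th percentile of all genes tested, the solid line is their median and dotted lines mark a 2-fold difference. In the knockdown in PBS, PRDX4, SOD2, PRDX2 and SOD1 lie below the band, and in control cells all 10 DMS ratios lie inside it.

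Over both media the knockdown was tested with limma on all 11198 genes, with medium as the second term. By this test 7 of the 10 genes fell, 1 rose and 2 did not pass the threshold of an adjusted p of 0.05. Of all genes tested 27.8% fell and 27.7% rose (55.5% in either direction), and 62.0% had an unadjusted p under 0.05. On the log2 scale SOD2 fell by 1.98 (SE 0.33, adjusted p = 0.00659 by limma), PRDX4 by 1.95 (SE 0.37, adjusted p = 0.00797 by limma) and PRDX2 by 1.68 (SE 0.35, adjusted p = 0.0101 by limma). SOD1 fell by 1.56, PRDX1 by 1.17, PRDX6 by 1.13 and PRDX3 by 0.89, with adjusted p between 0.00840 and 0.0142 by limma. CAT rose by 0.61 (SE 0.18, adjusted p = 0.0288 by limma). The estimates of PRDX5 (-0.12, SE 0.17, adjusted p = 0.573 by limma) and GPX4 (-0.19, SE 0.18, adjusted p = 0.399 by limma) did not pass, which does not show that they were equal between viruses. Both knockdown libraries were below both control libraries for 8 of 10 genes, against 41.9% of all genes, and above them for 1, CAT, against 42.2%.

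This fit has 1 residual degree of freedom per gene, and its residual takes up whatever part of the DMS response depends on virus. With 1 library per virus and medium, that residual is the difference of the DMS ratio between viruses, combined with a spread estimated over all genes. Separate cultures are not named in the labels, and these p-values measure no spread between replicates, technical or biological. Without the control library in PBS, or without that in DMS, in a fit without the medium term, 0 of the 10 genes and 0 of all genes were called by limma (3592 and 3295 genes at an unadjusted p under 0.05), while without either knockdown library 7 fell and 1 rose. Without the knockdown library in PBS the estimates of 5 genes were smaller by over 1.5 times, at -0.67 for PRDX1, -0.89 for PRDX2, -1.07 for PRDX4, -0.68 for PRDX6 and -0.90 for SOD1. With no filter on low values 2 of the 10, PRDX6 and SOD2, still fell, and with the values as deposited CAT no longer passed (0.49, adjusted p = 0.0611 by limma). Some genes listed as markers of other cells differed between the viruses. The summed level of 5 genes listed as epithelial or packaging-cell markers was 280 and 337 FPKM in control cells, in PBS and DMS. In the knockdown it was 25.2 and 145 FPKM. TUBB3 made up 275 FPKM of the sum in control cells in PBS, and EPCAM reached 4.80 FPKM at most. KRT8 and KRT18 were listed at 0 and CDH1 at 0.0289 FPKM at most, so the sum follows TUBB3 rather than the list. The summed level of 6 myeloid markers was 25.9 and 12.1 FPKM in control cells and 174 and 107 FPKM in the knockdown. Only 3 of the 6, ITGAM, LYZ and CD68, passed the filter, and these were higher in both knockdown libraries. CD14 reached 0.219 FPKM and CSF1R 0.128 FPKM at most, and MPO was listed at 0. The part of these markers in the results was not tested.

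The next comparisons asked what DMS did. In control cells the 10 genes differed little between media: 0 of 10 differed by 2-fold, where 0.402% of all genes were lower by that rule and 0.0804% higher. The ratios ran from -0.17 for SOD2 to 0.29 for PRDX6, which went from 116 FPKM without to 141 FPKM with DMS, and the median was 0.05 against -0.04 for all genes. In both viruses DMS was above PBS for 6 of 10 genes, against 26.7% of all genes. PRDX4 (0.19), PRDX1 (0.15) and PRDX5 (0.15) were the next highest after PRDX6. These differences have no replicate check.

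In knockdown cells the library in DMS held more of 8 of the 10 genes than the library in PBS, against 5663 of all 11198 genes tested. PRDX4 was 3.52-fold higher, SOD2 2.85-fold, SOD1 2.50-fold and PRDX1 2.01-fold, and PRDX2 had a log2 ratio of 1.57. Thus 5 of 10 genes were at least 2-fold higher, against 4.96% of all genes tested, and 0 were at least 2-fold lower, against 0.455%. PRDX6 (log2 ratio 0.90) and PRDX3 (0.50) followed. PRDX5 (0.19), GPX4 (-0.06) and CAT (-0.11) differed least. MYC itself was 36.7-fold higher in this library, and DMS and the higher MYC level cannot be told apart in it.

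The DMS ratio was higher in knockdown than in control cells for 8 of 10 genes, against 54.5% of all genes. The difference between the log2 ratios was 1.57 for PRDX4, 1.50 for PRDX2, 1.47 for SOD2 and 1.27 for SOD1, and it lay within 0.05 of 0 for PRDX5, GPX4 and CAT. It was not tested, because an interaction term leaves no residual degrees of freedom with 4 libraries. Over both viruses limma called 0 of the 10 genes and 0 of all genes for DMS (0.00%), with 3 of the 10 and 1420 of all genes (12.7%) at an unadjusted p under 0.05.

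Partner genes were taken from 9 lists, named in the plot of list members. Of the thioredoxin system, which recharges peroxiredoxins, 14 of 15 genes passed the filter, and over both media 5 fell and 2 rose by limma. For this and the other lists, the shares over all genes tested were 27.8% that fell and 27.7% that rose. The thioredoxin gene TXN measured 538 and 654 FPKM in control cells and 98.6 and 335 FPKM in the knockdown, in PBS and DMS, and fell by 1.70 (SE 0.34, adjusted p = 0.00928 by limma). Sulfiredoxin SRXN1, which rescues over-oxidised peroxiredoxins, fell by 1.48 on 20.4, 25.4, 3.90 and 13.8 FPKM, and the reductase gene TXNRD1 fell by 0.84. The mitochondrial TXN2 (119, 107, 78.6 and 82.0 FPKM) did not pass the threshold. TXNIP, the inhibitor of thioredoxin, rose by 2.69 on 79.0, 52.6, 498 and 358 FPKM. The list median in PBS was -0.61 on the log2 scale.

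Of the glutathione system 15 of 19 genes passed the filter, and 7 fell and 2 rose by limma. Over all genes tested 27.8% fell and 27.7% rose. GPX1, the abundant selenium-dependent peroxidase, measured 578 and 449 FPKM in control cells and 1219 and 790 FPKM in the knockdown and rose by 0.95 (adjusted p = 0.00695 by limma). The microsomal transferase MGST1 fell by 1.98 on 71.4, 81.9, 9.38 and 36.2 FPKM. The mitochondrial glutaredoxins GLRX5 and GLRX2 fell by 1.31 and 1.15. GSTP1, the most abundant transferase gene of the list, lay at 849, 1029, 690 and 835 FPKM and did not pass. Of the peroxidase genes outside the peroxiredoxin family GPX1 and CAT rose and GPX4 did not pass, and GPX2 and GPX3 were below the filter while GPX7 and GPX8 were listed at 0.

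NADPH oxidases make superoxide on purpose. Of 15 NADPH oxidase genes 7 passed the filter, of which 5 rose, 0 fell and 2 did not pass by limma. Over all genes tested 27.7% rose and 27.8% fell. CYBB, the catalytic subunit of the phagocyte oxidase, measured 36.3 and 20.4 FPKM in control cells and 145 and 86.9 FPKM in the knockdown and rose by 2.0 (SE 0.18, adjusted p = 0.00109 by limma). Its partner CYBA measured 1109, 880, 2098 and 1397 FPKM and rose by 0.79. The cytosolic activator NCF1 (rose by 2.12) and the GTPase RAC2 (by 1.58) had the same direction, although NCF1 has near-identical pseudogenes whose reads may be shared. The summed levels of the myeloid and of the B cell markers given above were both higher in the knockdown libraries. Whether either bears on these genes was not tested. The median ratio of the list was 1.63 in PBS and 1.52 in DMS.

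Among the genes that supply the other parts of the system, NADPH supply fell in 7 of 12 genes tested (15 listed) and rose in 0. Over all genes tested 27.8% fell and 27.7% rose. MTHFD1L, a mitochondrial folate enzyme, fell by 2.60 on 31.1, 27.1, 1.23 and 10.00 FPKM, and transketolase TKT fell by 1.52 on 274, 318, 63.9 and 163 FPKM. Of the 4 genes of copper supply and other dismutases 3 passed the filter. CCS, the chaperone that loads copper into SOD1, rose by 1.04 on 39.4, 36.1, 88.3 and 70.0 FPKM, while the copper carrier ATOX1 fell by 0.76 and SOD3 was listed at 0. Oxidative folding in the endoplasmic reticulum, where PRDX4 acts, fell in 7 of 11 genes and rose in 2. The oxidase gene ERO1A fell by 0.91 and its relative ERO1B rose by 1.41 on 2.11, 1.58, 8.11 and 5.25 FPKM. The ratio of PRDX4 to the disulfide isomerase P4HB was 0.773 and 0.884 in control cells and 0.189 and 0.551 in the knockdown.

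Of 23 peroxisome genes 22 passed the filter, and 5 fell and 1 rose, with a median ratio of 0.02 in PBS. PEX5, the import receptor that carries CAT into peroxisomes, fell by 1.42 on 29.9, 34.0, 7.49 and 16.9 FPKM, and the membrane protein gene PXMP2 fell by 1.13. Of 17 genes of selenoprotein synthesis and lipid peroxidation, around GPX4, 5 fell and 2 rose. DHODH fell by 1.65, GCH1 rose by 1.14, and the ferritin chain FTH1 rose by 0.65 on 691, 1018, 1315 and 1319 FPKM. The other ferritin chain gene, FTL, had an estimate of -0.46 on 1812, 2606, 1115 and 2246 FPKM and did not pass the threshold. Of 22 regulators tested (23 listed) 4 fell and 8 rose. FOXM1, a proliferation factor, fell by 1.26 and MAFK, a partner of NRF2, by 1.12, the NF-kB subunit gene RELB rose by 1.20 on 15.3, 10.7, 41.9 and 22.6 FPKM, and KEAP1 (56.4, 51.9, 37.8 and 41.4 FPKM) did not pass. Over all genes tested 27.8% fell and 27.7% rose, so the shares that fell in the peroxisome, selenoprotein and regulator lists were near or below that background.

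**Figure D4:**
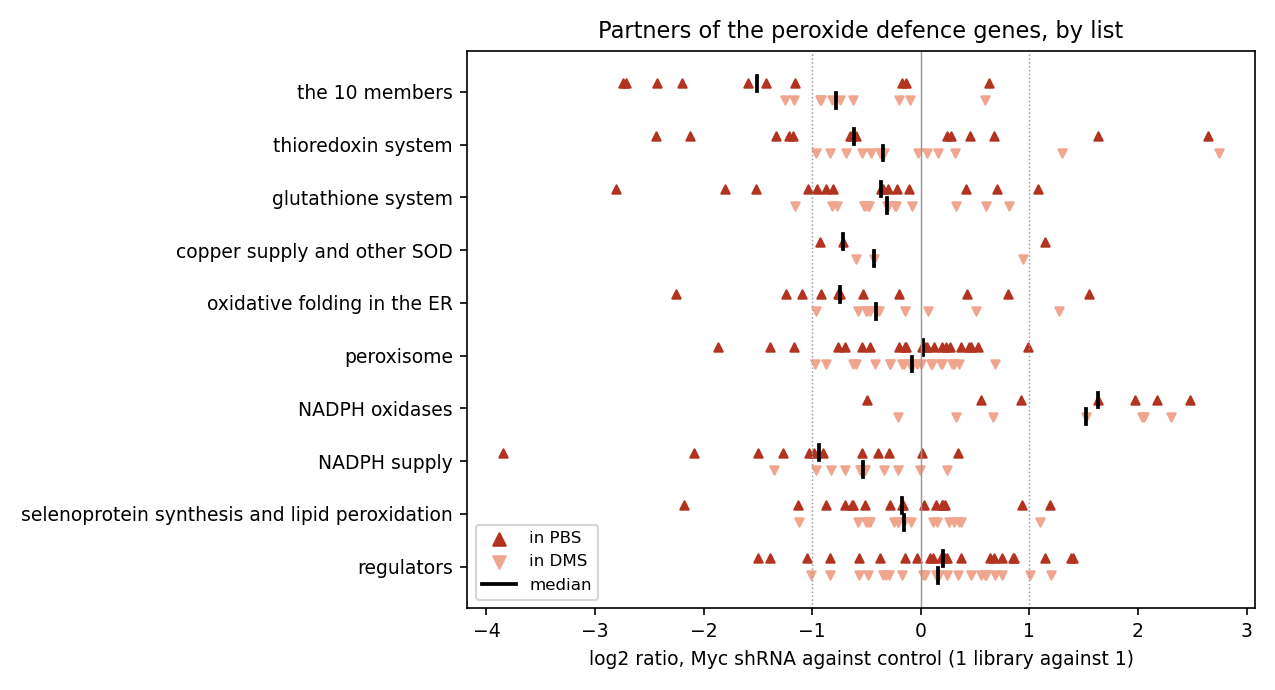
Log2 ratio of the Myc shRNA library against the control library (x axis) for each gene that passed the filter, in PBS and in DMS, by list; black ticks are medians and dotted lines mark a 2-fold difference. The 10 members have a median of -1.51 in PBS and the NADPH oxidase genes one of 1.63.

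Genes most like the widest and the narrowest of the 10 profiles on the log2(FPKM + 1) scale were looked up among the 6300 genes whose mean reached 10 FPKM, by the root mean square distance of centred log2(FPKM + 1) over the 4 libraries. Nearest to PRDX4 were MGST1 (distance 0.03), the methyl cycle enzyme AHCY (0.03) on 335, 361, 48.8 and 164 FPKM, and the sorbitol dehydrogenase SORD (0.06) on 78.5, 87.3, 11.8 and 39.2 FPKM. Nearest to GPX4 were ZNF787, ZCCHC3 and CHTOP, each at a distance of 0.01. The distance is given as a description.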

How the data were processed

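The RNA-seq tables of 4 CA46 libraries were used, 1 per combination of virus and medium. Per the submitters' processing notes TopHat2 2.1.0 and Cuffdiff 2.2.1 were among the tools, with Bowtie2 2.2.6, fastp and bcl2fastq, and hg19 and dm6 among the builds, with no role or order. Neither annotation nor strand setting was stated. The deposited values are FPKM, read from their fractional form and from column names as Cuffdiff writes them, although the titles speak of read counts. No depth or counting interval can be given.

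Rows with no gene name (3919 of 31016 rows, 14.3% to 25.2% of the summed FPKM) and 1998 small RNA symbols were left out. Rows of a symbol were summed. For scaling, a trimmed mean of each library's log2 ratios to the average library was used (trimming 30% by ratio and 5% by level, factors 0.951, 0.964, 1.05 and 1.04 for control in PBS and DMS and knockdown in PBS and DMS). The filter kept genes whose mean reached 1 FPKM. A gene counted as higher or lower between 2 libraries at a log2 ratio of at least 1 in size, on log2(FPKM + 1). limma 3.58.1 (R 4.3.3) with an intensity trend was fitted to the same values with virus and medium as terms, with an estimated 5.01 prior degrees of freedom, and p-values were adjusted by Benjamini-Hochberg over 11198 genes. The fit was tested on simulated data that held virus effects and random residuals but no DMS response. That test cannot show how the fit behaves where the DMS response differs between viruses. Start positions are those of the tables, counted from 1.

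The members, lists and tests were chosen with earlier results of these data known. All 10 members are named, with up to 3 genes per list of highest mean level and up to 3 of largest ratio in PBS, of which 1 is not reported here; TXNRD1, SOD3, GPX2, GPX3, GPX7 and GPX8 were named after their values were seen. Alternatives were the pseudocount 0.1, no filter, deposited values, median of ratios, the highest row of a symbol, other forms of the fit and leaving out each library.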

Additional observations from a re-analysis of the deposited data

Results flagged for a closer look

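For 2 genes the sign of the ratio of DMS to PBS differed between control and knockdown cells. SOD2 had a log2 ratio of DMS against PBS of -0.17 in control cells and 1.29 in knockdown cells, a difference of 1.47. PRDX3 had -0.03, close to 0, and 0.50, a difference of 0.53. Each ratio rests on 1 library against 1, the difference was not tested, and MYC was 36.7-fold higher in the knockdown library in DMS than in that in PBS.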

How the results depend on the processing

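With the values as deposited, which moved the median log2 ratio of all genes in PBS to -0.12, 4 of 10 genes rather than 2 were at least 2-fold lower in the knockdown in DMS, and 0 rather than 1 rose by limma over both media. With no filter on low values 2 of 10 rather than 7 fell over both media (adjusted p between 0.0502 and 0.0606 by limma for the other 5), and 1355 rather than 3108 of all genes fell. Leaving out 1 library, in a fit without the medium term, gave 0 to 7 genes that fell and 0 to 1 that rose, with 0 without either control library. Without the medium term PRDX2 alone of the 7 lost its call (adjusted p = 0.0530 by limma). With a pseudocount of 0.1 all genes at least 2-fold different in DMS went from 45 lower and 9 higher to 136 and 45 in control cells, and from 51 to 96 lower in knockdown cells. For DMS over both viruses, limma called 0 genes in every setting except without the control library in PBS, where 43 of all genes and 0 of the 10 rose, and without the knockdown library in DMS, where 1 gene fell. No sign of a called value changed in any setting run, and the other counts of the 10 genes stayed within 1.5 times. The cause of these changes was not tested. No paired analysis was possible because the labels number no replicates. With 1 library per group and no depth, small differences such as those of PRDX5 and GPX4 are not resolved.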
